A study of Mus musculus with 6 samples.

Results

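The heparan sulfate proteoglycans and the enzymes that build and edit their chains were described in the dorsal telencephalon of mouse embryos after injection of the growth factor FGF2. The set was a fixed list of 35 symbols, out of 37991 genes in the deposited tables, covering the core proteins, the linker and chain enzymes, the sulfotransferases and the sulfatases of the FGF co-receptor system. All 35 were found in the tables and all 35 had enough reads to be tested. The series compared 3 CD1 embryos aged E13.5 that received 100 ng of FGF2 in the ventricle of the telencephalon (numbered 6, 7 and 8 in the labels) with 3 CD1 embryos of the same age that received the vehicle alone, PBS with 0.1% BSA (numbered 7, 8 and 9). Each library came from 1 embryo, from formalin-fixed coronal sections taken rostral to the hippocampus, and no genetic modification is named for either group. The labels do not say how long after the injection the embryos were collected, and the series title places the comparison in a study of FGF2-induced folding of the mouse brain.

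Heparan sulfate is a long, negatively charged sugar chain carried by a small number of core proteins at the cell surface and in the matrix. FGF2 signals well only when it, its receptor and a heparan sulfate chain form a complex. The pattern of sulfate groups along the chain sets which FGFs bind. Xylosyltransferases start the linker that joins the chain to the core protein. The chain is extended by the Ext proteins and sulfated by the Ndst and Hs enzymes in the Golgi. Outside the cell it is trimmed of its 6-O-sulfates by Sulf1 and Sulf2.

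In FGF2 embryos 2 of the 35 genes rose and 1 fell (edgeR's quasi-likelihood test with Benjamini-Hochberg adjustment over 21983 genes, adjusted p under 0.05), and the other 32 were not called. Sulf1, a 6-O-endosulfatase, rose 6.70-fold. Hs3st5, a 3-O-sulfotransferase, rose 2.20-fold, and Gpc1, a glypican, fell to 0.632 times its vehicle level. Among all genes tested, 3.63% were called, 2.68% higher and 0.951% lower, against 8.57% of the members. The members' median log2 fold change was 0.01, as was that of all genes, with 18 members above 0 and 17 below.

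For 9 members the groups did not overlap in CPM (read counts scaled for library size, comparable between libraries). Of these, 4 were higher in every FGF2 embryo (Sulf1, Hs3st5, Hs6st3 and Ext1) and 5 were lower (Gpc1, Gpc4, Ndst1, Hspg2 and Extl3). Among all genes tested 14.6% did not overlap and were higher in FGF2 embryos, and 13.6% were lower. The members' 9 of 35 is therefore near the background of 28.2%. With 3 embryos per group the smallest two-sided p of an exact permutation test is 0.1, and the adjusted p-values therefore depend on edgeR's model of all genes. The plot of fold changes shows all members by role.

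**Figure D1:**
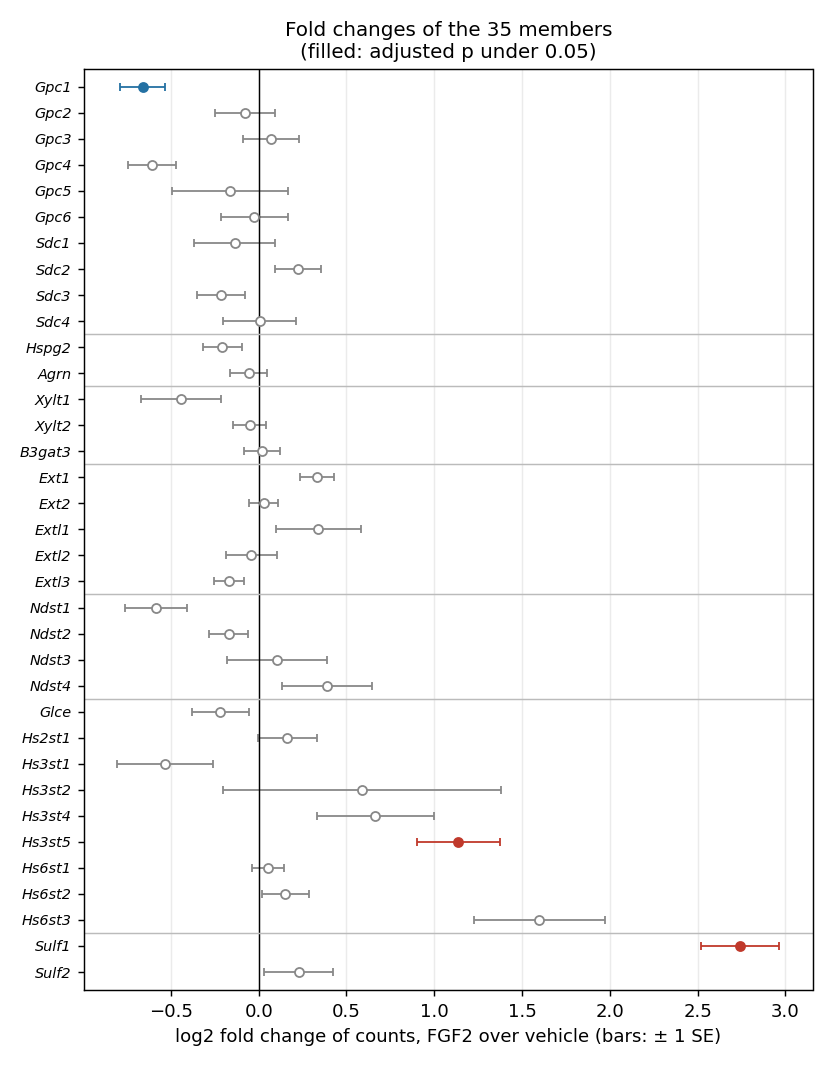
Log2 fold changes of the 35 members (FGF2 over vehicle, counts, edgeR; x axis) in role order, with bars of 1 SE; filled points have an adjusted p under 0.05. Sulf1 lies farthest to the right at 2.74, Hs6st3 and Hs3st5 follow at 1.60 and 1.14, and Gpc1 lies lowest at -0.66.

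Promoter sequences are printed for members whose groups did not overlap and whose log2 fold change was at least 0.5 in size. No promoter entry was matched for Sulf1, Gpc1 and Ndst1, which also met this rule, so theirs are not printed. The printed sequences are the 250 bases before the annotated start, on the gene's strand, from RefSeq in GRCm38.p6 coordinates. Hs3st5 (chr10:36506557-36506806, plus strand) and Gpc4 (chrX:52164924-52165173, minus strand) each hold 1 match to the GC box letters GGGCGG, on either strand, shown in capitals. Hs6st3 (chr14:119138015-119138264, plus strand) holds none.
Hs3st5: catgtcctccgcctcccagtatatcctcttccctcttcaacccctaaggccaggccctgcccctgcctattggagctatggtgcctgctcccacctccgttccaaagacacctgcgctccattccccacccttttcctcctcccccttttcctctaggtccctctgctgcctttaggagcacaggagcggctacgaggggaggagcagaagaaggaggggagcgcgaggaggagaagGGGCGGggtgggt
Gpc4: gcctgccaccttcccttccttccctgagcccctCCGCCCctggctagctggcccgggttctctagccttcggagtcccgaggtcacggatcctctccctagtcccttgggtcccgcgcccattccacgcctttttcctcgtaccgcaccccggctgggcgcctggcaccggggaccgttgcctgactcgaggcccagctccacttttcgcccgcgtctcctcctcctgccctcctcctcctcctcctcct
Hs6st3: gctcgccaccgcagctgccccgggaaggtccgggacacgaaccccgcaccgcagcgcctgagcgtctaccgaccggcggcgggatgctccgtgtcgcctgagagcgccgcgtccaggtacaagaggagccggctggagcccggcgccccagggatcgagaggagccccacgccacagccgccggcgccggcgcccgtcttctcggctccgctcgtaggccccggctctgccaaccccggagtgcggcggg
These windows hold 8 CG dinucleotides before Hs3st5, 18 before Gpc4 and 36 before Hs6st3, against a median of 6 over all 32851 promoter entries. Of these members, Hs3st5 and Hs6st3 were higher in every FGF2 embryo and Gpc4 was lower, and only Hs3st5 was called. A link between these letters and the direction of a difference was not tested. Promoter entries were matched for 26 of the 35 members, with 31 entries in all. A GC box stood in 64.5% of these and in 32.7% of all entries. The ETS letters CCGGAAGT, searched on both strands, stood in 3.23% of member entries and 2.88% of all, the GLI letters GACCACCC in 0% and 0.703%, and the TATA box letters TATAAA in 9.68% and 12.4%.

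The 6 libraries held 64631136 to 81532334 gene-overlapping reads in FGF2 embryos and 61489462 to 68101511 in vehicle embryos, and the 35 members took 0.225% to 0.261% of them in FGF2 embryos and 0.247% to 0.266% in vehicle embryos. FGF2 8 stood apart from FGF2 6 and 7. Xist reads put vehicle 8 and vehicle 9 (58349 and 57904 reads, with 22 reads of Y-linked genes in each) apart from the other embryos. The 3 FGF2 embryos and vehicle 7 had 29 to 51 Xist reads and 10475 to 16232 Y-linked reads, so embryo sex and treatment overlap in part. A fit with embryo sex therefore compares the FGF2 embryos with vehicle 7 alone, and calls lost in it cannot be read as an effect of sex. With embryo sex as a covariate, 4 genes were called higher and 1 lower (0.0182% and 0.00455% of all tested), and no member was called. In vehicle 9 every count was even, and halving them left all 3 member calls in place.

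The dissected region carried its own markers and those of neighbouring tissue, and several marker lists differed between the groups. Dorsal pallium markers summed to 1176 to 1421 CPM in FGF2 embryos and 1908 to 2013 CPM in vehicle embryos, with 3 of 7 genes called lower (Emx1, Pax6 and Eomes). Meningeal markers summed to 1686 to 1748 CPM in FGF2 embryos and 2714 to 3117 CPM in vehicle embryos, with 2 of 6 genes called lower. The dorsal pallium sum and 6 of its 7 genes were lower in every FGF2 embryo. The meningeal sum was carried by Col1a1 and Col1a2: of the other 4 genes Foxc2 was higher in every FGF2 embryo and Dcn, Lum and Foxc1 overlapped, and the sum of these 4 was 144 to 180 CPM in FGF2 embryos and 150 to 173 CPM in vehicle embryos.

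Markers of the cortical hem and midline summed to 84.0, 71.3 and 39.4 CPM in FGF2 6, 7 and 8 and to 10.7 to 11.7 CPM in vehicle embryos, with 5 of 6 called higher. Choroid plexus markers summed to 157, 217 and 464 CPM in FGF2 6, 7 and 8 and to 2.0 to 3.32 CPM in vehicle embryos, with 4 of 6 called higher and Folr1 at 0 reads in 2 vehicle embryos. Ventral telencephalon markers summed to 399, 487 and 553 CPM in FGF2 6, 7 and 8 and to 26.3 to 117 CPM in vehicle embryos, with 5 of 9 table entries for 8 genes called higher and Lhx8 at 0 reads in 2 vehicle embryos. These 3 sums were higher in every FGF2 embryo, but the genes within a list did not order the FGF2 embryos alike. Gsx2 has 2 overlapping entries with nearly the same reads (1141 and 1139 in FGF2 6). Its reads therefore enter the ventral sum from both entries. FGF2 8 was below FGF2 6 and 7 in 4 of 6 hem genes and above both in 2. Without Ttr the choroid plexus sum was 97.4, 90.9 and 72.2 CPM in FGF2 6, 7 and 8 (1.56 to 3.20 CPM in vehicle embryos), and without Dlx1 the ventral sum was 272, 321 and 297 CPM in FGF2 6, 7 and 8 (13.46 to 64.9 CPM in vehicle embryos), so FGF2 8 was highest in both sums through 1 gene each. Diencephalon markers summed to 112 to 270 CPM in FGF2 embryos and 71.3 to 80.3 CPM in vehicle embryos, with 3 of 5 called higher and Gbx2 at 0 reads in 1 vehicle embryo. Endothelial markers summed to 192 to 216 CPM in FGF2 embryos and 176 to 200 CPM in vehicle embryos, with 0 of 6 called. Microglial markers summed to 59.5 to 65.5 CPM in FGF2 embryos and 42.7 to 51.2 CPM in vehicle embryos, with 1 of 4 called higher (Ptprc). Muscle and skin markers summed to 44.1 to 75.7 CPM in FGF2 embryos and 65.0 to 85.4 CPM in vehicle embryos, with 0 of 3 tested genes called and Myog at 0 reads in all 3 vehicle embryos. In such bulk samples fewer cells of a type and less RNA per cell cannot be told apart, and the part of tissue makeup in the member results was not tested.

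Levels between genes were compared as RPKM, which scales reads for gene length and library size, in the deposited tables. The length used is not stated. It was not the whole span counted for CPM, as Gpc1, spanning 28554 bases, had 345 CPM and 104 RPKM in FGF2 6. CPM and RPKM therefore need not rest on the same reads. In vehicle embryos 14 members had a mean RPKM of at least 10, another 14 lay between 1 and 10, and 7 lay below 1. Gpc1 had the highest RPKM of all members in both groups (93.9 ± 16.0 in FGF2 embryos and 144 ± 11.5 in vehicle embryos, SD, n = 3 each), followed by Agrn (49.7 ± 5.04 in FGF2 embryos and 49.3 ± 3.13 in vehicle embryos). Below Agrn in vehicle embryos came Gpc4, Gpc3, B3gat3, Gpc2, Sdc3, Sulf2, Sdc1, Hs2st1, Hs6st1, Extl3, Ndst1 and Hs3st1. The lowest 7 were Hs3st4, Extl1, Hs3st2, Hs3st5, Ndst4, Gpc5 and Hs6st3 by RPKM. Sulf1 stood 12th of 35 in FGF2 embryos and 27th in vehicle embryos, and no other member moved by more than 4 places.

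**Figure D2:**
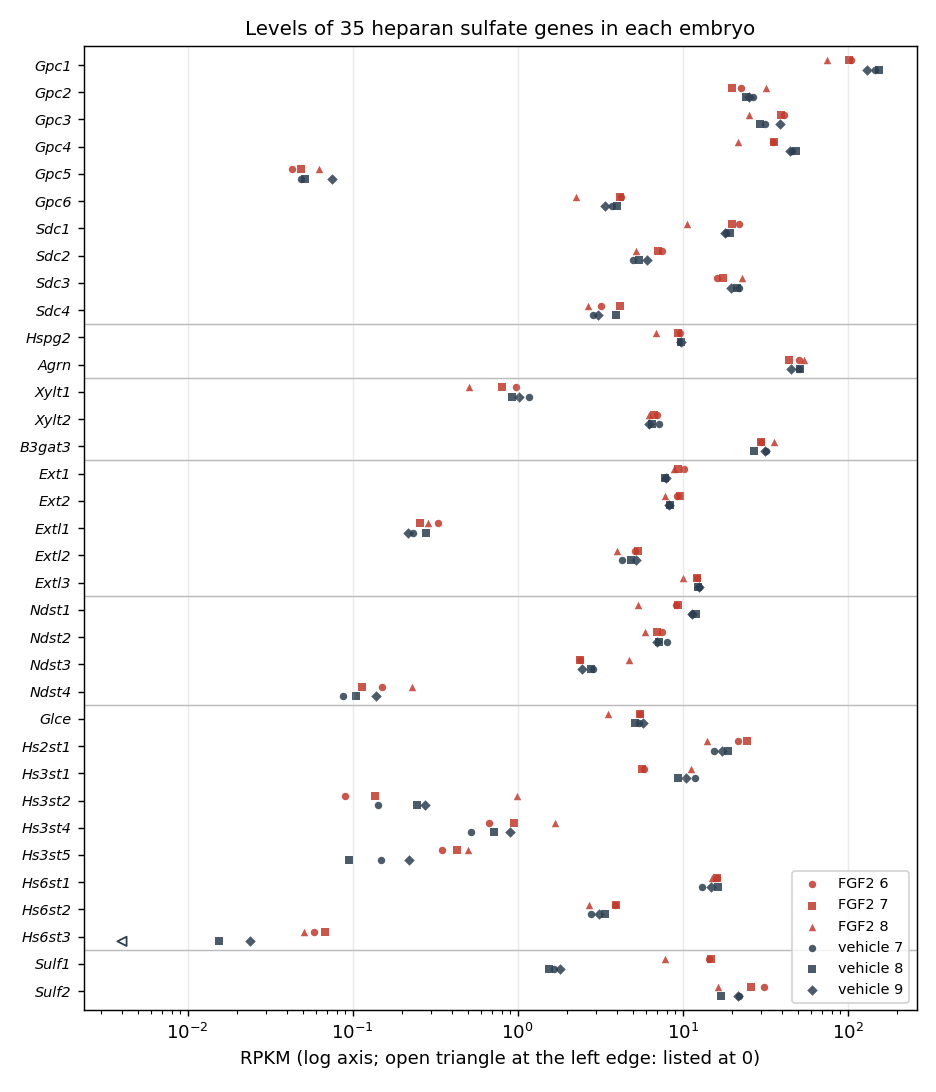
RPKM of each of the 35 members in each of the 6 embryos (x axis, log scale), with FGF2 embryos in red above vehicle embryos in dark blue and horizontal lines between roles; an open triangle marks a value listed at 0. Levels run from Gpc1, at 75.4 or more in every embryo, to Hs6st3, under 0.1 in every embryo.

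Among the core proteins of the cell surface, the 6 glypicans, held by a lipid anchor, and the 4 syndecans, which span the membrane, 1 of 10 members fell and none rose. Gpc1, a glypican abundant in the developing brain, is ENSMUSG00000034220 on chromosome 1 (94728222 to 94756775, NCBIM37), with counts over the whole span, introns included. Gpc1 was at 345, 342 and 260 CPM in FGF2 6, 7 and 8, against 502, 538 and 458 CPM in vehicle 7, 8 and 9. Every FGF2 embryo lay below every vehicle embryo, with FGF2 8 lowest. The log2 fold change in counts was -0.66 ± 0.13 (SE, edgeR, adjusted p = 0.0366), and by RPKM Gpc1 was at 104, 102 and 75.4 in FGF2 6, 7 and 8, against 146, 154 and 132 in vehicle 7, 8 and 9. The call ended without FGF2 6 (adjusted p = 0.0660), FGF2 7 (0.0826), vehicle 7 (0.141), vehicle 8 (0.166) or vehicle 9 (0.0860), with library totals as the only scaling (0.0507), and in the limma fit of log2(RPKM + 1) (0.0672). The dorsal pallium markers above and, of the meningeal markers, Col1a1 and Col1a2 were lower in the same embryos. Within the FGF2 group the dorsal pallium sum was 1176, 1226 and 1421 CPM in FGF2 6, 7 and 8, highest where Gpc1 was lowest. The genes of this list were not alike. Of the 7 genes, FGF2 8 was above FGF2 6 and 7 in 4, below both in 2 (Emx2 and Pax6) and between them in 1. Neurod6 differed most, at 82.5, 135 and 266 CPM in FGF2 6, 7 and 8. Col1a1 was also highest in FGF2 8 (886, 937 and 974 CPM in FGF2 6, 7 and 8), and Col1a2 was lowest there (671, 654 and 569 CPM). The part of these tissues in the Gpc1 difference was not tested. The Gpc1 span also holds the microRNA gene Mir149, which had 96 to 278 overlapping reads in FGF2 embryos and 320 to 408 in vehicle embryos.

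Gpc4, another glypican (chromosome X, 49406198 to 49518429, NCBIM37), was at 115, 110 and 81.7 CPM in FGF2 6, 7 and 8, against 155, 170 and 144 CPM in vehicle 7, 8 and 9. The groups did not overlap and FGF2 8 was again lowest, with a log2 fold change of -0.61 ± 0.14 (SE) that was not called (edgeR, adjusted p = 0.0552). Its promoter is the 1 printed above with 18 CG dinucleotides. The other 4 glypicans overlapped between the groups, with log2 fold changes of -0.16 (Gpc5) to 0.07 (Gpc3). The glypican RPKM values summed to 208, 201 and 157 in FGF2 6, 7 and 8, against 254, 261 and 244 in vehicle 7, 8 and 9. Gpc1 supplied 49.7% ± 1.32 of that sum in FGF2 embryos and 56.8% ± 2.67 in vehicle embryos (SD, n = 3 each), and the 2 groups did not overlap in this share.

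None of the 4 syndecans was called. Their log2 fold changes in counts ran from -0.22 (Sdc3, the syndecan of neural tissue) to 0.22 (Sdc2), with adjusted p of 0.402 to 0.991 (edgeR). Their RPKM values summed to 46.5 ± 4.22 in FGF2 embryos and 48.4 ± 1.62 in vehicle embryos (SD, n = 3 each). FGF2 8 departed from the other 2 injected embryos: Sdc1 was at 75.7, 69.2 and 37.7 CPM in FGF2 6, 7 and 8, against 65.2 to 70.1 CPM in vehicle embryos. Sdc3 was at 88.4, 95.9 and 127 CPM in FGF2 6, 7 and 8, against 114 to 125 CPM in vehicle embryos. Sdc1 therefore made up 25.7% of the syndecan RPKM sum in FGF2 8 and 40.9% to 45.1% in the other 2 FGF2 embryos, against 37.9% to 38.5% in vehicle embryos.

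Neither secreted core protein was called. Agrn, agrin, which organises synapses at the neuromuscular junction, was at 381, 339 and 417 CPM in FGF2 6, 7 and 8, against 409, 412 and 363 CPM in vehicle 7, 8 and 9, so the groups overlapped. Its log2 fold change was -0.06 ± 0.10 in counts and 0.01 as a ratio of mean RPKM, and it changed sign with the measure. Hspg2, perlecan of basement membranes, was at 128, 125 and 97.9 CPM in FGF2 6, 7 and 8, against 133, 137 and 136 CPM in vehicle 7, 8 and 9. The groups did not overlap, with a log2 fold change of -0.21 ± 0.11 (SE, edgeR, adjusted p = 0.352).

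**Figure D3:**
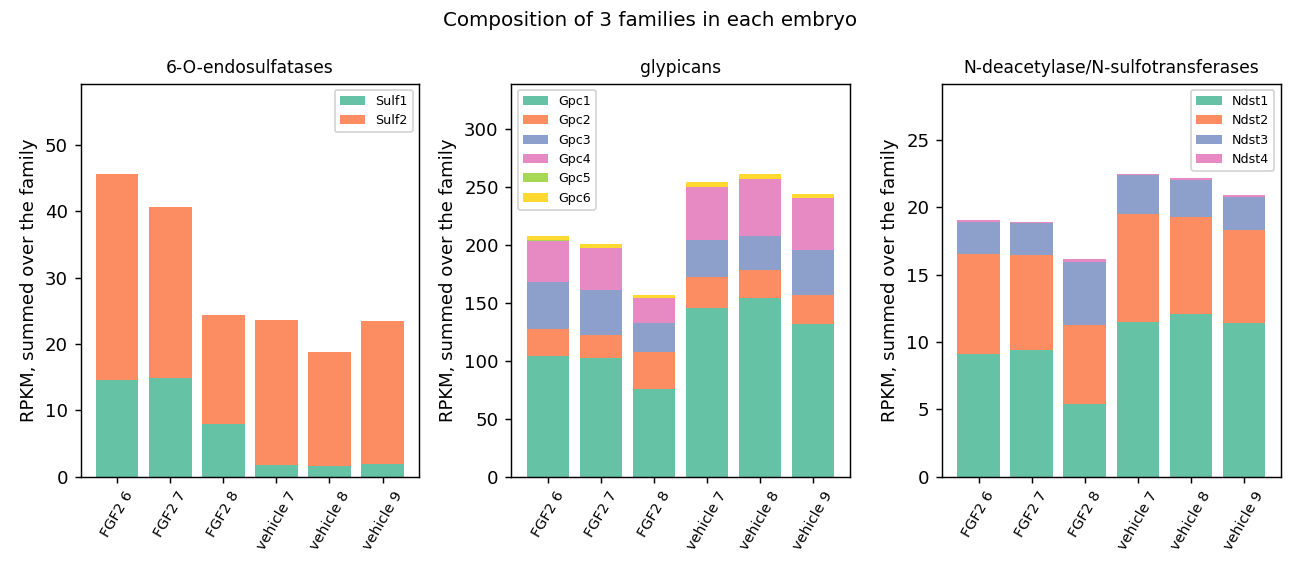
Stacked bars of RPKM summed over the 6-O-endosulfatases, the glypicans and the N-deacetylase/N-sulfotransferases in each embryo, FGF2 embryos to the left of vehicle embryos. The Sulf1 segment takes 31.8% to 36.3% of its bar in FGF2 embryos and 7.08% to 8.31% in vehicle embryos, and the glypican bars reach 157 to 208 in FGF2 embryos and 244 to 261 in vehicle embryos.

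None of the 3 linker enzymes was called. B3gat3, which adds the glucuronic acid that completes the linker, was at 54.1, 53.4 and 66.0 CPM in FGF2 6, 7 and 8, against 59.5, 53.2 and 58.7 CPM in vehicle 7, 8 and 9. The groups overlapped, with a log2 fold change of 0.02 ± 0.10. Xylt1 and Xylt2, the xylosyltransferases that start the linker, had log2 fold changes of -0.44 ± 0.23 and -0.05 ± 0.09 (SE, edgeR, adjusted p = 0.338 and 0.802). Xylt2 was the more abundant of the pair, with an RPKM of 6.66 ± 0.407 in FGF2 embryos and 6.66 ± 0.460 in vehicle embryos, while Xylt1 had 0.762 ± 0.238 in FGF2 embryos and 1.04 ± 0.124 in vehicle embryos (SD, n = 3 each).

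Of the 5 chain polymerisation genes none was called. Ext1, which forms the copolymerase with Ext2, was at 109, 92.8 and 94.7 CPM in FGF2 6, 7 and 8, against 76.0, 86.0 and 73.2 CPM in vehicle 7, 8 and 9. The groups did not overlap, yet the log2 fold change of 0.33 ± 0.10 (SE) was not called (edgeR, adjusted p = 0.112). Ext2, its partner, was at 59.8 ± 5.0 CPM in FGF2 embryos and 58.6 ± 1.24 CPM in vehicle embryos (SD, n = 3 each), with a log2 fold change of 0.03 ± 0.08 (SE). Extl3, which adds the first N-acetylglucosamine of the chain, was at 70.2, 70.9 and 59.8 CPM in FGF2 6, 7 and 8, against 76.2, 74.7 and 74.7 CPM in vehicle 7, 8 and 9. Extl3 thus lay lower in every FGF2 embryo, by a log2 fold change of -0.17 ± 0.08 (SE, edgeR, adjusted p = 0.334). Ext1 made up 27.1% ± 1.48 of the RPKM sum of the 5 genes in FGF2 embryos and 23.3% ± 0.267 in vehicle embryos, and Extl3 made up 32.8% ± 0.276 in FGF2 embryos and 37.1% ± 0.671 in vehicle embryos (SD, n = 3 each). Extl1 and Extl2 had log2 fold changes of 0.34 ± 0.24 and -0.04 ± 0.14.

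The 4 Ndst enzymes remove acetyl groups from the chain and put sulfate on the freed nitrogen, the step on which the later sulfations depend. None was called. Ndst1 (chromosome 18, 60845632 to 60908304, NCBIM37) was at 56.4, 59.4 and 35.8 CPM in FGF2 6, 7 and 8, against 73.8, 78.8 and 75.1 CPM in vehicle 7, 8 and 9. Every FGF2 embryo lay below every vehicle embryo, with a log2 fold change of -0.59 ± 0.18 (SE, edgeR, adjusted p = 0.124), and without FGF2 8 Ndst1 was called lower (-0.39, adjusted p = 0.00781). Ndst1 and Ndst2 together supplied most of the family RPKM in every embryo, with Ndst1 at 43.5% ± 9.01 of it in FGF2 embryos and 53.3% ± 1.97 in vehicle embryos, and Ndst2 at 37.5% ± 1.44 in FGF2 embryos and 33.8% ± 1.70 in vehicle embryos (SD, n = 3 each). Ndst3 was at 21.6, 19.3 and 42.6 CPM in FGF2 6, 7 and 8, against 22.5 to 28.2 CPM in vehicle embryos, and so took 29.1% of the family RPKM in FGF2 8 and 12.5% and 12.7% in the other 2 FGF2 embryos. Ndst4 stayed under 0.3 RPKM in every embryo, with a log2 fold change in counts of 0.39 ± 0.26.

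Of the 9 genes for epimerisation and O-sulfation, 1 rose and none fell. Glce, the epimerase that turns glucuronic into iduronic acid, had a log2 fold change of -0.22 ± 0.16. Hs2st1, the only 2-O-sulfotransferase of heparan sulfate, had the highest mean RPKM of these 9 genes and was at 110, 120 and 76.8 CPM in FGF2 6, 7 and 8, against 81.6, 103 and 89.6 CPM in vehicle 7, 8 and 9. FGF2 8 lay below all 3 vehicle embryos and the other 2 FGF2 embryos above them, so the groups overlapped (log2 fold change 0.16 ± 0.17, SE, edgeR, adjusted p = 0.642).

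Hs3st5 is 1 of the enzymes that add the rare 3-O-sulfate, the last modification of the chain (ENSMUSG00000044499, chromosome 10, 36226620 to 36554203, NCBIM37). Hs3st5 was at 7.32, 8.37 and 12.7 CPM in FGF2 6, 7 and 8, against 3.79, 4.04 and 5.08 CPM in vehicle 7, 8 and 9. All 3 FGF2 embryos lay above all 3 vehicle embryos, with FGF2 8 highest, and the log2 fold change was 1.14 ± 0.24 (SE, edgeR, adjusted p = 0.0442). The level was low: 0.347, 0.427 and 0.498 RPKM in FGF2 6, 7 and 8, against 0.150, 0.0957 and 0.221 RPKM in vehicle 7, 8 and 9. The call ended without FGF2 7 (adjusted p = 0.0863), vehicle 7 (0.174), vehicle 8 (0.193) or vehicle 9 (0.0961), and in the limma fit of log2(RPKM + 1) with no filter (0.161). The summed ventral telencephalon, choroid plexus, hem and midline, diencephalon and microglial markers above were all higher in every FGF2 embryo as well. The part of any of them in the Hs3st5 difference was not tested. The span also holds a small RNA gene, SNORA48, with 0 reads in every library.

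The other 3 Hs3st members were not called. Hs3st1 was the most abundant of the Hs3st genes by RPKM. With Hs3st3a1, Hs3st3b1 and Hs3st6, which are not in the set of 35, counted in the sum, its share was 62.3% ± 5.37 in FGF2 embryos and 73.0% ± 4.06 in vehicle embryos (SD, n = 3 each), with FGF2 8 at 66.5% and vehicle 9 at 68.3%. Hs3st1 was at 12.02, 11.76 and 23.9 CPM in FGF2 6, 7 and 8, against 20.5 to 25.3 CPM in vehicle embryos. The first 2 of these FGF2 embryos lay below the vehicle range and FGF2 8 lay inside it (log2 fold change -0.53 ± 0.27, SE, edgeR, adjusted p = 0.338). Without FGF2 8, Hs3st1 was called lower (adjusted p = 0.00244). Hs3st2 was at 0.333, 0.592 and 3.37 CPM in FGF2 6, 7 and 8, against 0.671 to 1.17 CPM in vehicle embryos, and Hs3st4 was at 2.77, 3.44 and 6.44 CPM in the same FGF2 embryos, against 2.13 to 3.14 CPM in vehicle embryos. Both were highest in FGF2 8 and neither separated the groups.

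Hs6st1 to Hs6st3 add the 6-O-sulfates that FGF signalling complexes use. Hs6st1 and Hs6st2 were not called, with log2 fold changes of 0.05 ± 0.09 and 0.15 ± 0.13 (SE, edgeR, adjusted p = 0.782 and 0.587), and Hs6st1 supplied 81.6% ± 2.45 of the family RPKM in FGF2 embryos and 82.6% ± 0.281 in vehicle embryos. Hs6st3 (chromosome 14, 119537637 to 120268816, NCBIM37), the least abundant member in vehicle embryos, was at 4.09, 3.09 and 7.51 CPM in FGF2 6, 7 and 8, against 1.65, 2.05 and 1.14 CPM in vehicle 7, 8 and 9. The groups did not overlap, and the log2 fold change of 1.60 ± 0.37 (SE) was not called (edgeR, adjusted p = 0.0638). By RPKM it was at 0.0580, 0.0678 and 0.0506 in FGF2 6, 7 and 8, against 0.0155 in vehicle 8, 0.0238 in vehicle 9 and a listed 0 in vehicle 7.

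**Figure D4:**
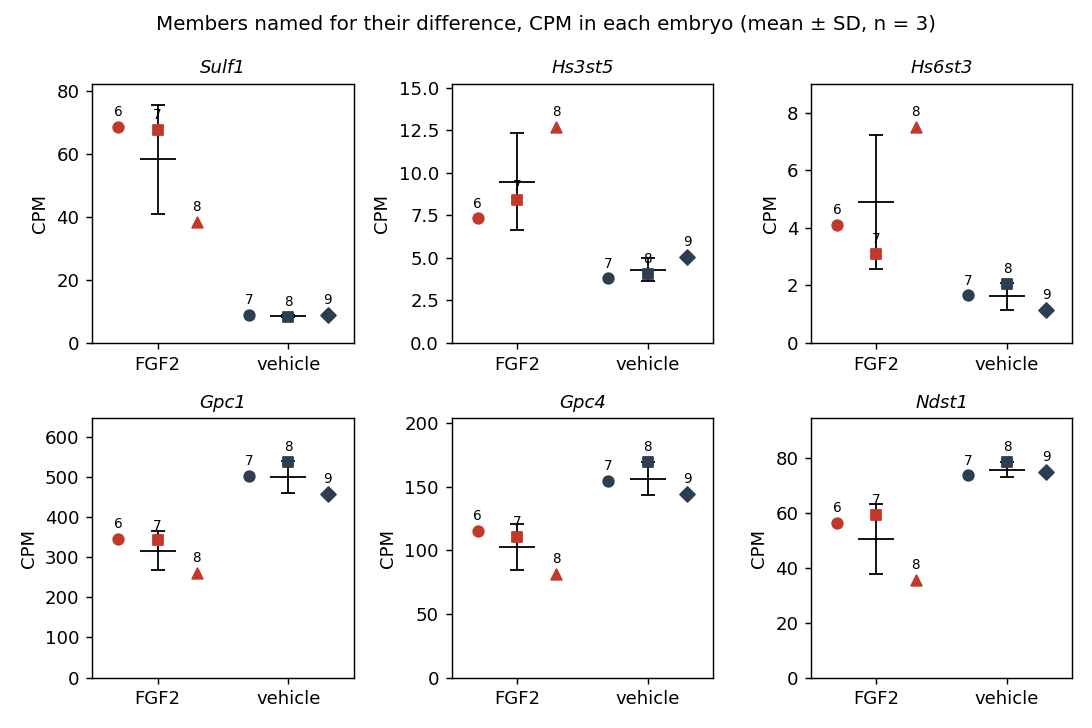
CPM of Sulf1, Hs3st5, Hs6st3, Gpc1, Gpc4 and Ndst1 (y axis from 0) in each embryo, numbered as in the labels, with the mean and SD of each group of 3; FGF2 embryos stand to the left. The groups do not overlap in any panel; FGF2 8 is lowest of the FGF2 embryos for Sulf1, Gpc1, Gpc4 and Ndst1 and highest for Hs3st5 and Hs6st3.

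Sulf1 and Sulf2 cut 6-O-sulfates from finished chains outside the cell, and through this are known to lower FGF signalling and to alter the binding of Wnt and other ligands. Sulf1 (ENSMUSG00000016918, chromosome 1, 12708626 to 12850452, NCBIM37) had 5780, 4812 and 2472 reads in FGF2 6, 7 and 8, against 542, 558 and 562 reads in vehicle 7, 8 and 9. That is 68.7, 67.8 and 38.4 CPM in FGF2 embryos, with a mean of 58.3 ± 17.2, against 8.87, 8.35 and 8.92 CPM in vehicle embryos, with a mean of 8.71 ± 0.316 (SD, n = 3 each). The vehicle embryos lay close together and FGF2 8, the lowest of the injected embryos, was still far above them. The log2 fold change was 2.74 ± 0.22 (SE, edgeR, adjusted p = 0.00166). By RPKM Sulf1 was at 14.5, 14.8 and 7.85 in FGF2 6, 7 and 8, against 1.67, 1.56 and 1.82 in vehicle 7, 8 and 9, a ratio of means of 7.34.

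The Sulf1 call was kept with each embryo left out in turn (log2 fold change 2.61 to 2.97, adjusted p 2.03e-06 to 0.0151) and in 17 of 19 alternatives in all. It ended with embryo sex as a covariate (log2 fold change 2.72, adjusted p = 0.0813) and in the fit of log2(RPKM + 1) with no filter (0.0636). Its span overlaps no other gene. FGF2 8 was the lowest FGF2 embryo for Sulf1 (38.4 CPM) and for the summed hem and midline markers (39.4 CPM), a match picked after the values were seen. Sulf1 was near equal in FGF2 6 and 7, and their order differed between CPM and RPKM. FGF2 8 was below FGF2 6 and 7 in 4 of 6 hem genes (above both in 2). The same held in 2 of 9 ventral telencephalon entries (above both in 4) and 1 of 6 choroid plexus genes (above both in 3). FGF2 8 was also below both in 4 of 6 meningeal genes (above both in 2), the same counts as for the hem genes. Of the members, 19 were below both in FGF2 8, Sulf1 among them, and 13 were above both. The order of the FGF2 embryos therefore did not single out the hem list. The part of hem or other cells in the Sulf1 difference was not tested.

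Sulf2, the more abundant of the pair, was at 172, 144 and 97.3 CPM in FGF2 6, 7 and 8, against 126, 102 and 125 CPM in vehicle 7, 8 and 9. FGF2 6 and 7 lay above all vehicle embryos and FGF2 8 below them, so the groups overlapped (log2 fold change 0.23 ± 0.20, SE, edgeR, adjusted p = 0.575). Sulf1 was 31.8%, 36.3% and 32.3% of the RPKM sum of the pair in FGF2 6, 7 and 8, against 7.08%, 8.31% and 7.74% in vehicle 7, 8 and 9. The sum of the pair was 36.9 ± 11.1 RPKM in FGF2 embryos and 21.97 ± 2.77 RPKM in vehicle embryos (SD, n = 3 each). The share of Sulf1 thus varied little within a group and did not overlap between them, while the sum in FGF2 8 (24.3) lay close to that in vehicle 7 (23.6).

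FGF2 8 differed from the other 2 FGF2 embryos across the set. It was the highest of all 6 libraries for 12 of the 35 members (34.3%) and the lowest for 15 (42.9%), against 28.03% and 27.98% of all tested genes. Its CPM lay at least 1.5 times above the mean of FGF2 6 and 7 in 9 members and at or below 1/1.5 of it in 4. Without FGF2 8, 3 members were called higher (Sulf1, Hs3st5 and Hs6st3) and 6 lower (Gpc1, Gpc2, Gpc4, Sdc3, Ndst1 and Hs3st1), against 4.31% and 4.38% of all genes tested in that fit. The plot of each FGF2 embryo against the vehicle mean shows these departures.

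**Figure D5:**
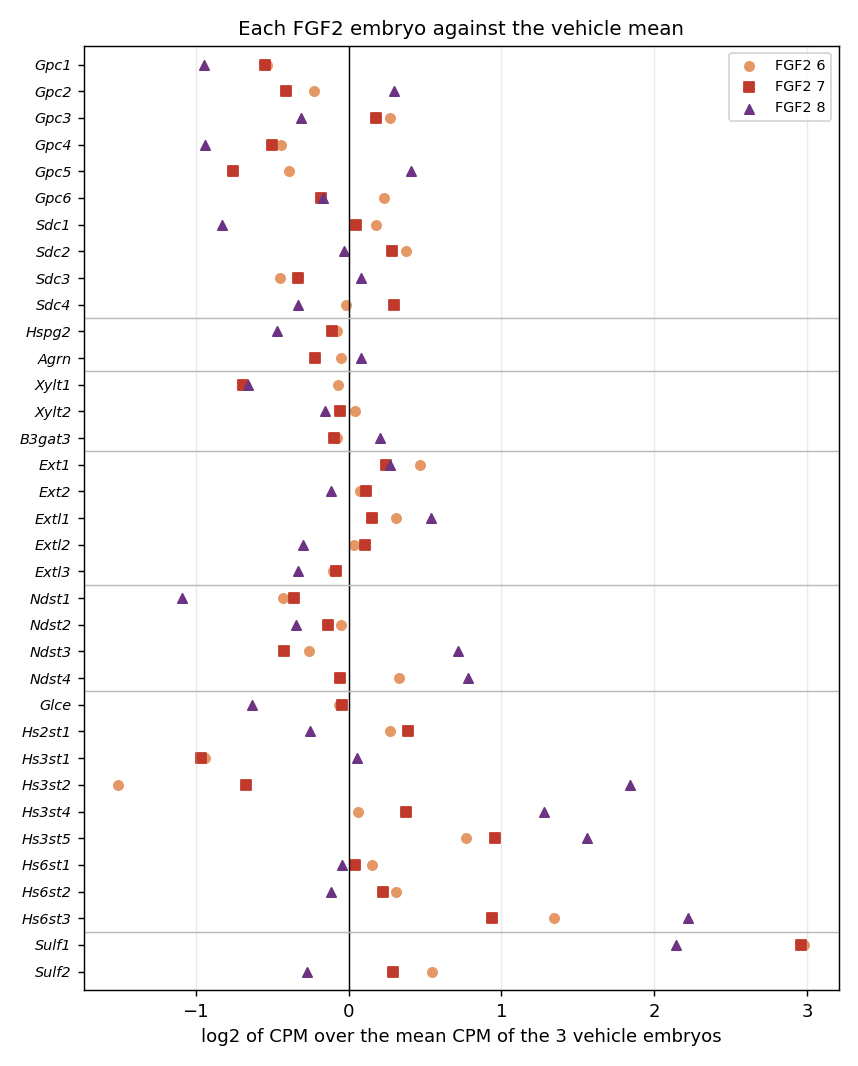
Log2 of the CPM of each FGF2 embryo over the mean CPM of the 3 vehicle embryos (x axis) for the 35 members; the vertical line marks the vehicle mean. For Sulf1 the embryos lie at 2.98, 2.96 and 2.14 (FGF2 6, 7 and 8), while for Hs3st1 they lie at -0.94, -0.97 and 0.06 and for Ndst3 at -0.26, -0.42 and 0.72.

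Of 31 further genes of heparan sulfate biology, covering other carriers, the remaining linker and 3-O-sulfation enzymes, donor supply, release and lysosomal breakdown, 1 rose and 1 fell (6.45% called), with a median log2 fold change of -0.01. Hpse2, a heparanase relative that binds the chain, was at 16.7, 20.3 and 17.8 CPM in FGF2 6, 7 and 8, against 10.6, 11.4 and 11.9 CPM in vehicle 7, 8 and 9 (log2 fold change 0.69 ± 0.12, SE, edgeR, adjusted p = 0.0224). Acpl2, the older symbol of Pxylp1, which removes the phosphate from the linker xylose, was at 31.4, 31.7 and 35.5 CPM in FGF2 6, 7 and 8, against 53.2, 48.1 and 52.0 CPM in vehicle 7, 8 and 9 (log2 fold change -0.64 ± 0.09, SE, edgeR, adjusted p = 0.0101). Neither pair of groups overlapped in CPM. The Hpse2 call ended without FGF2 7 (adjusted p = 0.0691), vehicle 7 (0.119), vehicle 8 (0.114) or vehicle 9 (0.0731), with embryo sex as a covariate (0.260) and in the limma fit of log2(RPKM + 1) with no filter (0.806), and its span overlaps other genes. The Acpl2 call ended without vehicle 7 (0.0621) or vehicle 9 (0.0524), with embryo sex (0.153) and in the same RPKM fit (0.0550), and held in the other 2 RPKM fits. None of the 8 donor supply genes and none of the 8 lysosomal genes was called; at an unadjusted p under 0.05, 10 of the 31 and 7 of the 35 members passed, against 19.3% of all genes tested.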

How the data were processed

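RNA-seq libraries from 6 embryos were analysed, 3 per group, grouped by the sample titles. The submitters' processing notes name bedtools 2.12.0, Bowtie2 2.1.0.0, TopHat2 2.0.9 and CASAVA 1.8, and the build NCBIM37 (mm9), but no role of a tool. The deposited counts are whole numbers of reads overlapping a gene's span from start to end, introns included, so genes that share a span share reads, and 10 members overlap another span. Use of strand is not stated in the labels or file headers. The deposited RPKM values are named so in the authors' files, with no tool stated. They were used for levels and in limma 3.58.1 fits of log2(RPKM + 1) or log2(RPKM + 0.1), with RPKM of at least 1 in 3 libraries.

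Counts were tested with edgeR 4.0.16 in R 4.3.3 (filterByExpr, TMM, glmQLFit with robust estimation, glmQLFTest, no covariate), adjusted by Benjamini-Hochberg over all 21983 genes kept, after the code was tested on simulated data. CPM use TMM library sizes. Depth left the members 28 to 35948 reads per library. Reads carry no molecular identifiers and need not be separate molecules. Embryos are separate animals, so p-values measure the spread between these 6. Alternatives were RLE and library-total scaling, other filters, DESeq2 1.42.0, voom with quality weights, embryo sex, the embryo number as a block, and each embryo left out. Values per embryo are given by rule for members past the adjusted p of 0.05, those without overlap and with a log2 fold change of at least 0.5 in size, and the most abundant of each role. The other members given by embryo (Sdc1, Sdc3, Hspg2, Ext1, Ndst3, Hs3st1, Hs3st2 and Hs3st4) were chosen after their values were seen. The members and lists were chosen with earlier results of these data known.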

Additional observations from a re-analysis of the deposited data

How the results depend on the processing

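The fold changes of Sulf1, Hs3st5, Gpc1, Gpc4, Hs6st3, Ndst1, Extl3, Hs2st1 and Sulf2 kept their direction under every alternative that gave a value. Agrn (-0.06) reversed to 0.012 without FGF2 7 (-0.13 to 0.012 with an embryo left out) and to 0.01 (0.00819, 0.00829 and 0.00819) in the RPKM fits with a pseudocount of 1, of 0.1, and of 1 with no filter. B3gat3 (0.02) reversed to -0.056 with voom, -0.041 with embryo sex, -0.089 without FGF2 8 and -0.033 without vehicle 8 (-0.089 to 0.066 with an embryo left out). The cause was not tested. Counts of calls moved more than the fold changes. Hs3st5 had no value among genes overlapping no other span and in the RPKM fits with a filter, so its call was not tested there. Members called higher numbered 0 with embryo sex and in the RPKM fit with no filter, 1 among genes overlapping no other span and in the other 2 RPKM fits, 3 with DESeq2, with voom and with no low-count filter, and 1 to 3 with an embryo left out. Members called lower numbered 0 with library totals alone, with embryo sex, among genes overlapping no other span (which leaves out Gpc1) and in all 3 RPKM fits, 2 with no low-count filter, 3 with DESeq2, 5 with voom and 0 to 6 with an embryo left out. Of the other pathway genes, those higher numbered 3 with DESeq2 and voom, 0 with embryo sex, among genes overlapping no other span and in the RPKM fits, and 0 to 3 with an embryo left out; those lower numbered 2 with DESeq2, 0 with embryo sex and in the RPKM fit with no filter, and 0 to 2 with an embryo left out. Over all genes, those higher numbered 1359 with DESeq2, 1242 with voom, 4 with embryo sex, 344 among genes overlapping no other span, 327, 328 and 130 in the RPKM fits, and 181 to 964 with an embryo left out; those lower numbered 706 with DESeq2, 951 with voom, 1 with embryo sex, 119, 112 and 33 in the RPKM fits, and 37 to 979 with an embryo left out. Embryo numbers 7 and 8 occur in both groups, and whether the number stands for a shared litter or batch is not stated. Deviations from the group means correlated at -0.04 and -0.03 in same-numbered embryos and at -0.08 to 0.06 in the others. With 3 embryos per group this cannot exclude a pairing. Numbers 6 and 9 each occur in 1 group only, so the block fit takes its FGF2 effect from numbers 7 and 8. With the number as a replicate block, 2 members were called higher and 3 lower (Gpc1, Gpc4 and Xylt1), other pathway genes 0 and 0 (Hpse2 at an adjusted p of 0.0617, Acpl2 at 0.0924), and all genes 557 and 146. With library totals alone the median log2 fold change of all genes was 0.05, against 0.01. Hs3st2 had the fewest reads in 1 library (28) and the largest standard error of the members (0.79), and 8 members did not pass the RPKM filter.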

Other observations

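CPM from counts over the whole span and RPKM did not always rank the embryos alike. In 10 of the 35 members the highest of the 6 embryos differed between the measures, among them Gpc5, Extl1 and Hs6st3 of the 7 members with a mean vehicle RPKM under 1. Hs6st3 and, of the other pathway genes, Hpse2 are given as examples chosen after their values were seen. Hs6st3 was highest of all embryos in FGF2 8 by CPM (7.51, against 4.09 and 3.09 in FGF2 6 and 7) and lowest of the FGF2 embryos there by RPKM (0.0506, against 0.0580 and 0.0678). Hpse2 was higher in every FGF2 embryo by CPM, but by RPKM it was at 0.432, 0.572 and 0.129 in FGF2 6, 7 and 8, against 0.224, 0.169 and 0.267 in vehicle 7, 8 and 9, where FGF2 8 was lowest of all. Over the 35 members the sign of the ratio of mean RPKM and that of the count fold change were the same in 33, and Agrn and Extl2, both near 0, were the other 2.

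Several enzymes were measured next to their partner within the same step. Ext1 and Ext2 had an RPKM of 9.45 ± 0.657 and 8.89 ± 0.940 in FGF2 embryos, and 7.87 ± 0.0266 and 8.35 ± 0.0504 in vehicle embryos (SD, n = 3 each). The 6-O-sulfotransferase RPKM values summed to 19.4 ± 1.33 in FGF2 embryos and 17.9 ± 1.94 in vehicle embryos, while those of the 2 enzymes that remove 6-O-sulfates summed to 36.9 ± 11.1 in FGF2 embryos and 21.97 ± 2.77 in vehicle embryos. The 7 Hs3st genes measured summed to 9.12, 10.1 and 16.9 RPKM in FGF2 6, 7 and 8, against 15.7, 12.5 and 15.3 RPKM in vehicle 7, 8 and 9. These sums were not tested.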
